A study of Rattus norvegicus with 10 samples.

Results

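The insulin-like growth factor (IGF) family was followed in mammary glands of Sprague-Dawley rats, all female and at postnatal day 50, that ate 1 of 3 diets. The family was taken as all probe sets whose gene symbol on the array was Igf1, Igf2, Igf1r, Igf2r, Igfbp2, Igfbp3, Igfbp4, Igfbp5, Igfbp6 or Igfbp7. All 10 genes were found, of 10411 named genes on the array, with 19 of the 15866 probe sets (a probe set is the group of short probes that together measure a transcript). The study asked, by its title, how SPI or genistein in the diet changes gene expression of the mammary epithelium. There were 4 arrays of the SPI diet (replicates 2, 3, 4 and 5), 3 of the GEN diet (replicates 1, 3 and 5) and 3 of the CAS diet (replicates 1, 2 and 3). The GEN diet held genistein, an isoflavone of soy and a ligand of estrogen receptors. From knowledge of the study and not from the labels, SPI is soy protein isolate and CAS is casein, which served as the control diet.

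Each array carried RNA pooled from the number 4 mammary glands of 2 animals, except that the labelling text of CAS 3 speaks of 7 animals. The protocols describe 3 labelled targets per pool without tying arrays to pools, so the p-values measure the spread between these arrays, which may in part be technical. The labels name mammary epithelial cells as the source, and the protocols name the gland. Of the 11 luminal epithelial markers on the array 10 passed the filter on dim probe sets described below, and so did 12 of 13 fibroblast markers and 6 of 9 adipocyte markers. The adipocyte markers Lep (signals of 6.6 to 18.8), Plin1 (24.7 to 110.2) and Pck1 (116.0 to 206.1) and the fibroblast marker Fbln1 (98.3 to 207.5) did not. Nor did the luminal marker Krt7 (57.5 to 259.5). Of 6 liver genes listed as a control that should be absent, 2 passed too, so passing alone does not show a cell type. These were Cyp2c11 (110.9 to 214.1) and Serpina1 (146.5 to 226.4). The brightest markers lay far above that, with at least 1409.0 for Krt8, 13756.2 for Col3a1 and 10206.2 for Fabp4. RNA of several cell types was thus measured, in which fewer cells of a type and less RNA per cell cannot be told apart. All arrays were scaled to a common mean, so differences in total RNA are not visible.

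IGF-I and IGF-II are secreted growth factors that act through the receptor tyrosine kinase encoded by Igf1r, while the receptor encoded by Igf2r carries IGF-II to lysosomes for breakdown. The binding proteins hold the ligands in serum and tissue and either restrain them or prolong their action. In the rodent mammary gland, IGF-I made in the stroma under growth hormone drives ductal growth at puberty, and Igfbp5 is known for its rise when the gland involutes after weaning.

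The sequences before the transcription start are shown for a selection, the ligand Igf2 and the binding proteins Igfbp2, Igfbp5, Igfbp6 and Igfbp7. They come from RefSeq on the rat build GRCr8 and hold the 250 bases before an annotated start. Capitals mark the GC box (GGGCGG) and the single arm of the estrogen response element (GGTCA, below called the single arm), both searched on both strands.
Igf2, chr1:207250476-207250725, minus strand: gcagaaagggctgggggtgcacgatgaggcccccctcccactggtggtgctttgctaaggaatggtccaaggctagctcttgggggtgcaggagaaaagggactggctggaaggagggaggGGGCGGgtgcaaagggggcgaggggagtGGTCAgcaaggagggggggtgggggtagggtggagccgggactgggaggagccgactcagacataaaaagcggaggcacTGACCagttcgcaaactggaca
Igfbp2, chr9:81864561-81864810, plus strand: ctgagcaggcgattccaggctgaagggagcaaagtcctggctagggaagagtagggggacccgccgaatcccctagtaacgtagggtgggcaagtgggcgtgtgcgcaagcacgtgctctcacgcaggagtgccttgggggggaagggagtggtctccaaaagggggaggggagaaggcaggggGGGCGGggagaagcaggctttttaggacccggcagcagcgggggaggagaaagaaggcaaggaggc
Igfbp5, chr9:81914188-81914437, minus strand: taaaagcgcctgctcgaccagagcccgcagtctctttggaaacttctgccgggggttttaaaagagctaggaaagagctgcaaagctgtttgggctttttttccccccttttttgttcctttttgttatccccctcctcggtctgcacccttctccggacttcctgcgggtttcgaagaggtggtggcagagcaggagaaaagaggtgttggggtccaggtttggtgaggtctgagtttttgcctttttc
Igfbp6, chr7:135154669-135154918, plus strand: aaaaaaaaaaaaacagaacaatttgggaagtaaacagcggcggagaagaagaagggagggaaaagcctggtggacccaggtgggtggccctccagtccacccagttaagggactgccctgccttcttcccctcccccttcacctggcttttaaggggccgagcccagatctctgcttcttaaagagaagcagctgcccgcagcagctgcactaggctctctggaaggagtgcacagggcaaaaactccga
Igfbp7, chr14:31091486-31091735, plus strand: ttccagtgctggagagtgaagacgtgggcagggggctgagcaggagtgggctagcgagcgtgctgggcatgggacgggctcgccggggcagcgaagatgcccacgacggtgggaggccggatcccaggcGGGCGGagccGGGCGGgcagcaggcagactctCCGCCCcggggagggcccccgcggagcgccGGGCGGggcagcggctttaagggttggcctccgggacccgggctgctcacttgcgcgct
All 10 genes had an entry, and Igf2 had 2, which made 11 stretches. The Igf2 stretch not shown held none of the motifs named here. The Igf2 stretch shown holds 1 GC box and 2 single arms, the Igfbp2 stretch holds 1 GC box and the Igfbp7 stretch holds 4. Those of Igfbp5 and Igfbp6 hold neither. Over the family, 5 of 11 stretches held a GC box, against 30.5% of 33469 stretches of the same length in the rat table. The single arm was in 2 of 11 stretches (Igf2 and Igf2r), against 35.4% in the table, and the whole estrogen response element (GGTCANNNTGACC, which contains the single arm) was in 0 of 11, against 0.0239%. The TATA box (TATAAA) was in 1 of 11 (Igfbp4), against 12.9%. The STAT element (TTCNNNGAA) was in 0 of 11, against 7.67%. These matches describe letters and say nothing of binding.

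The values below are MAS5 signals on a linear scale, in the order of the replicate numbers given above. Of the 19 probe sets, 15 passed the filter on dim probe sets, which left out the lowest 40% by mean log2 signal over all arrays (a geometric mean signal under 162). The 15 covered all 10 genes. Signals of different probe sets depend on their probes and are not set against each other.

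**Figure D1:**
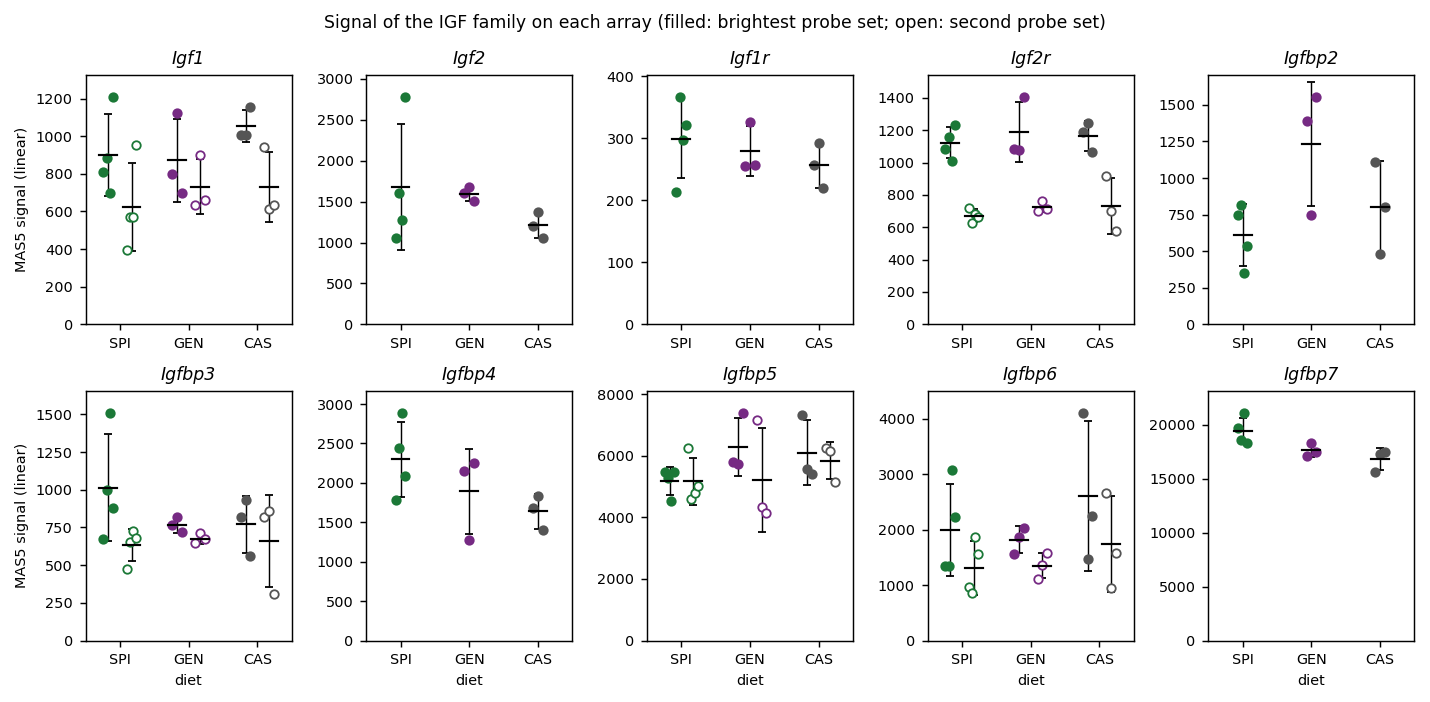
Each panel plots the MAS5 signal of a gene on every array by diet, on linear axes from 0; points are arrays, bars the mean, and error bars the SD over arrays (n = 4 for SPI, 3 for GEN and 3 for CAS). Filled points are the brightest probe set and open points the second tested one. Relative to its level Igfbp2 spreads most widely, with 4.43 times the lowest signal at the highest, and Igfbp7 least, with 1.35 times.

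Among the ligands, Igf1 did not separate the diets. Its brightest probe set (1370333_a_at) had signals of 811.7, 883.1, 700.3 and 1206.8 on SPI, of 796.9, 1121.2 and 697.8 on GEN, and of 1006.0, 1007.8 and 1153.5 on CAS. The second probe set (1388469_at) had 397.5, 572.7, 571.0 and 955.3 on SPI, 632.8, 900.3 and 661.8 on GEN, and 942.9, 611.6 and 634.1 on CAS. The highest signal on each probe set was that of SPI 5, inside a diet whose other arrays were low, and every pair of diets overlapped. On the brightest probe set, SPI against CAS gave a log2 difference of -0.26 ± 0.20 (SE; limma's adjusted p = 0.987). GEN against CAS gave -0.30 ± 0.21 (0.846), and SPI against GEN gave 0.05 ± 0.20 (0.963). On the second probe set these were -0.27 ± 0.26 (SPI minus CAS), 0.01 ± 0.28 (GEN minus CAS) and -0.28 ± 0.26 (SPI minus GEN), and none passed.

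Igf2, the fetal and imprinted ligand of the family, was measured well by 1 of its 4 probe sets (1367571_a_at). Its signals were 1050.4, 1605.7, 1275.6 and 2776.1 on SPI, 1606.0, 1683.7 and 1505.2 on GEN, and 1203.9, 1371.5 and 1055.0 on CAS. The 3 GEN arrays lay above the 3 CAS arrays, whereas the SPI arrays ran from below the CAS range to well above the GEN range. The mean was 1598.3 ± 89.5 (SD, n = 3) on GEN and 1210.1 ± 158.3 (SD, n = 3) on CAS, and their log2 difference of 0.41 ± 0.27 (SE) did not pass (limma's adjusted p = 0.846, and 0.770 to 0.994 over the alternatives). SPI against CAS stood at 0.38 ± 0.26 (adjusted p = 0.987), and without SPI 5 at 0.10. With the beta-actin ratio of the array as a covariate the GEN difference was 0.26. The other 3 Igf2 probe sets lay under the filter, with signals of 4.6 to 58.6.

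The diets overlapped on every tested receptor probe set. Igf1r, the signalling receptor, had signals of 213.2, 366.1, 297.4 and 320.6 on SPI, 254.5, 325.4 and 256.8 on GEN, and 257.0, 292.9 and 219.7 on CAS. The SPI arrays held both the lowest and the highest value. Its log2 difference stood at 0.21 ± 0.21 (SPI minus CAS), 0.12 ± 0.22 (GEN minus CAS) and 0.08 ± 0.21 (SPI minus GEN), none past the threshold.

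Igf2r, which clears IGF-II and sorts lysosomal enzymes, had on its brightest probe set (1386872_at) 1085.9, 1160.5, 1008.7 and 1230.8 on SPI, 1081.6, 1078.6 and 1403.8 on GEN, and 1189.4, 1243.3 and 1064.9 on CAS. GEN 5 was the highest array and SPI 4 the lowest, and the diets overlapped. The 95% interval of its log2 difference reached from -0.36 to 0.25 (SPI minus CAS), from -0.31 to 0.35 (GEN minus CAS) and from -0.38 to 0.23 (SPI minus GEN). The second probe set (1367636_at) ran from 577.8 to 919.0 over all arrays, with both ends on CAS.

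Among the binding proteins, Igfbp2 varied most. It had signals of 746.6, 817.5, 350.1 and 534.1 on SPI, 1392.6, 750.0 and 1551.9 on GEN, and 1112.8, 479.4 and 803.9 on CAS. GEN 1 and GEN 5 lay above every other array, while GEN 3 lay inside the SPI range. SPI arrays averaged 612.1 ± 212.1 (SD, n = 4), against 1231.5 ± 424.5 (SD, n = 3) for GEN arrays, and the log2 difference was -1.02 ± 0.34 (SE, 95% interval -1.76 to -0.27). Its unadjusted p in limma, 0.0114, was the smallest of the family, and it did not pass (adjusted p = 0.558, and 0.399 to 0.998 over the alternatives). Against CAS the difference was -0.38 ± 0.34 for SPI and 0.64 ± 0.37 for GEN, and neither passed. With single arrays left out, SPI against CAS ran from -0.70 (without CAS 2) to -0.10 (without CAS 1), and was -0.13 without SPI 4. GEN against CAS ran from 0.31 (without CAS 2) to 0.96 (without GEN 3). The Igfbp2 difference between SPI and GEN was -0.77 without SPI 4, -1.34 without GEN 3 and -0.50 with replicate number as a block. In that last fit SPI 4 stands alone in its block and adds nothing to the difference.

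Luminal and milk markers had the same sign as Igfbp2 for SPI against GEN, and none of them passed. That sign was not limited to epithelial lists. Tested macrophage genes (0 of 7 positive, median -0.33) and skeletal muscle genes (0 of 3, -0.58, of 9 on the array) had it too. So did the liver control genes (0 of 2, -0.19), whose signals of 110.9 to 226.4 lay near the filter level. Fibroblast genes had 4 of 12 positive, adipocyte genes 3 of 6 and endothelial genes 6 of 8. None of these passed either. The mean log2 signal of 11 luminal markers was 8.80 to 9.94 over SPI arrays and 10.06 to 10.42 over GEN arrays, and 0 of the 10 tested luminal genes had a positive log2 difference for SPI against GEN (median -0.69). The mean of 8 milk and secretion genes was 11.30 to 12.37 over SPI arrays and 12.70 to 13.26 over GEN arrays, with 0 of 8 positive (median -1.07). The mean of 9 basal and myoepithelial markers was 8.99 to 9.95 over SPI arrays and 9.64 to 10.32 over GEN arrays, with 3 of 8 tested genes positive (median -0.60) and none past the threshold. The receptor gene Oxtr of that list had signals of 4.4 to 14.7. SPI 4 had the lowest Igfbp2 signal, the lowest luminal mean and the highest ratio of the 3' to the 5' beta-actin probe set (7.77), which is high in shortened RNA. GEN 5 had the highest Igfbp2 signal, the highest luminal mean and the lowest ratio (2.83). The part of epithelial share and RNA quality in the Igfbp2 difference was not tested beyond a fit with the ratio as a covariate, in which it was -0.96.

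Igfbp3, the main carrier of IGFs in serum, had on its brightest probe set (1386881_at) 672.0, 999.8, 1505.8 and 878.8 on SPI, 766.0, 821.9 and 716.4 on GEN, and 820.4, 929.2 and 559.7 on CAS. The second probe set (1367652_at) had 477.5, 650.3, 725.8 and 678.0 on SPI, 645.9, 711.4 and 671.5 on GEN, and 818.8, 858.0 and 310.1 on CAS. SPI 4 was the highest array on the brightest probe set and CAS 3 the lowest on each. The log2 difference of the brightest was 0.37 ± 0.24 with SPI against CAS (limma's adjusted p = 0.987). That value was 0.15 without CAS 3 and 0.16 without SPI 4. The difference was 0.03 ± 0.26 with GEN against CAS (0.984) and 0.34 ± 0.24 with SPI against GEN (0.725). On the second probe set it was 0.06 ± 0.29 (SPI minus CAS), 0.17 ± 0.31 (GEN minus CAS) and -0.11 ± 0.29 (SPI minus GEN). The last had the opposite sign, and none passed.

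Igfbp4, which restrains IGF action until a protease cleaves it, had 1783.8, 2442.8, 2880.5 and 2087.4 on SPI, 2146.3, 1270.2 and 2255.2 on GEN, and 1675.0, 1837.3 and 1404.4 on CAS. All SPI arrays except SPI 2 lay above the CAS range. SPI arrays averaged 2298.6 ± 472.2 (SD, n = 4) and CAS arrays 1638.9 ± 218.7 (SD, n = 3). The log2 difference of 0.47 ± 0.21 (95% interval 0.01 to 0.94) had an unadjusted p of 0.0454 in limma and did not pass (adjusted p = 0.987, with 0.631 to 0.9999 under alternatives). GEN stood at 0.17 ± 0.23 against CAS, with 0.43 without GEN 3, which had the lowest signal of all 10 arrays, and 0.02 without GEN 5.

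Igfbp5, the involution-associated and matrix-binding member, had on its brightest probe set (1370960_at) 5492.0, 5280.5, 4529.5 and 5462.2 on SPI, 5794.3, 5721.5 and 7380.0 on GEN, and 7314.4, 5585.2 and 5426.4 on CAS. Every SPI array lay below every GEN array there. The second probe set (1387348_at) had 6265.0, 4604.9, 4795.4 and 5012.8 on SPI, 7170.0, 4355.5 and 4150.2 on GEN, and 6244.1, 6144.8 and 5142.1 on CAS, and its order of arrays was another. For SPI against GEN the log2 difference was -0.27 ± 0.14 on the brightest (limma's adjusted p = 0.647) and 0.02 ± 0.18 on the second (0.986). The remaining Igfbp5 probe set lay under the filter, with 9.5 to 21.8.

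Igfbp6, which binds IGF-II in preference to IGF-I, had on its brightest probe set (1372168_s_at) 1340.9, 1352.2, 3084.2 and 2223.3 on SPI, 1561.6, 1870.3 and 2037.3 on GEN, and 4100.0, 1478.0 and 2253.7 on CAS. The second probe set (1387625_at) had 964.3, 852.7, 1866.7 and 1563.5 on SPI, 1118.9, 1356.9 and 1577.5 on GEN, and 2671.7, 956.5 and 1589.2 on CAS. CAS 1 was the highest and SPI 4 the next highest on each, while the GEN arrays lay close together. The log2 difference of the brightest was -0.35 ± 0.33 for SPI against CAS and -0.40 ± 0.36 for GEN against CAS. Without CAS 1 these were 0.04 and -0.01. CAS 1 also had the highest fibroblast mean (12.04, against 10.47 to 11.46 on the other arrays) and the highest mean of skeletal muscle markers (8.85, against 5.19 to 6.33).

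Igfbp7, a secreted protein of vessel walls that binds IGFs weakly, was the steadiest member. It had 19699.5, 18640.3, 21057.7 and 18337.4 on SPI, 17128.5, 18320.3 and 17509.7 on GEN, and 15624.8, 17326.2 and 17462.9 on CAS. All 4 SPI arrays lay above all GEN and all CAS arrays. SPI arrays averaged 19433.7 ± 1230.1 (SD, n = 4) and CAS arrays 16804.6 ± 1024.0 (SD, n = 3). Their log2 difference was 0.21 ± 0.09 (SE, 95% interval 0.01 to 0.41). In limma its unadjusted p was 0.0398 and it did not pass (adjusted p = 0.987, with 0.657 to 0.9999 under alternatives). Against GEN the difference was 0.14 ± 0.09 (adjusted p = 0.709). With quantile normalization, which acts most on the brightest probe sets, the difference against CAS was 0.13. All 8 endothelial markers tested had a positive log2 difference for SPI against CAS (median 0.21), 0 of them passed, and their part in the Igfbp7 values was not tested. The endothelial mean was 11.13 to 11.51 over SPI arrays and 10.87 to 11.31 over CAS arrays, and Igfbp7 itself is not on that list.

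**Figure D2:**
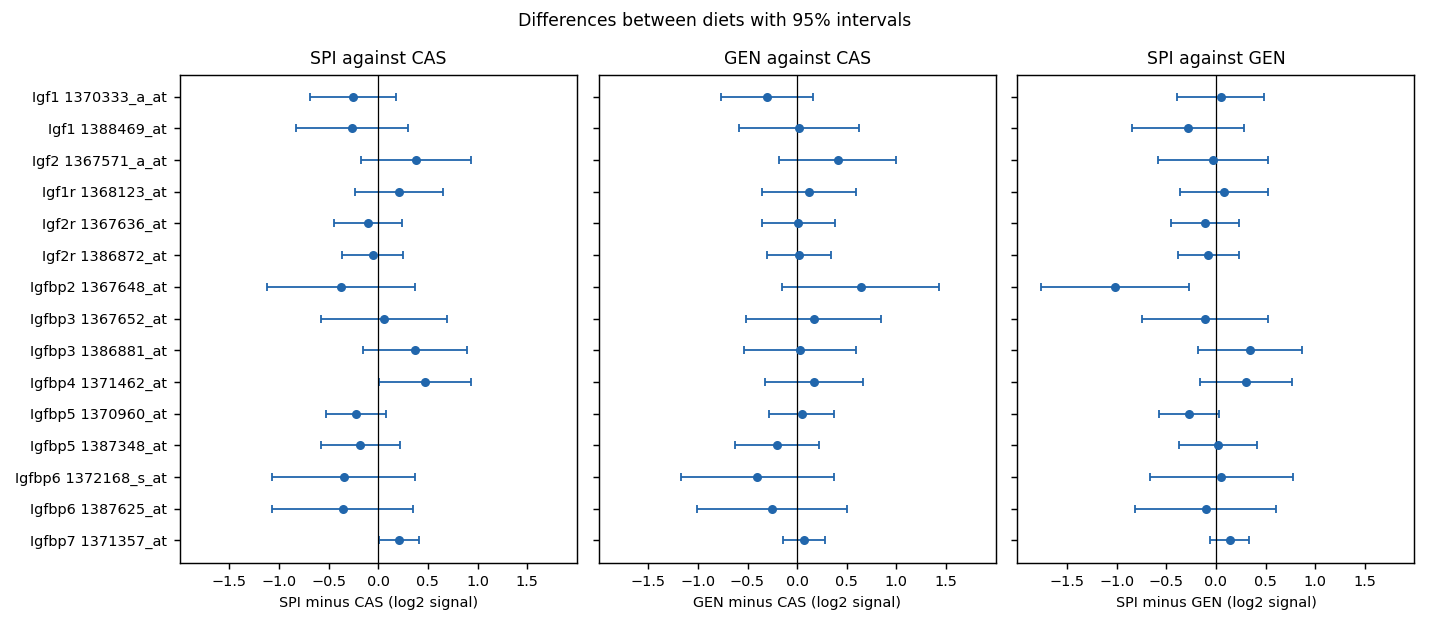
Each panel plots the log2 difference of the 15 tested probe sets in a comparison (first diet minus second) with its 95% interval from limma. For SPI against CAS only Igfbp4 and Igfbp7 have intervals above 0, and for SPI against GEN only Igfbp2 has an interval below 0 (-1.76 to -0.27). None of them passed after adjustment.

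Over the family, limma called 0 of 15 probe sets at an adjusted p under 0.05 in each comparison, and 0.0% of the 9520 tested probe sets were called in each. At an unadjusted p under 0.05 the family had 2 of 15 for SPI against CAS (Igfbp4 and Igfbp7, both higher), where the share over all tested probe sets was 4.82%, or 1.53% for higher alone. It had 0 of 15 for GEN against CAS, beside 5.89%, and 1 of 15 for SPI against GEN (Igfbp2), beside 7.95%. The counts depended on the setting. For SPI against CAS the count was 0 without the intensity trend, with quantile normalization, without SPI 4 or without CAS 1, and 4 without SPI 5. It ran from 0 to 2 over the alternatives for GEN against CAS (2 without GEN 3) and for SPI against GEN (2 without SPI 2 or SPI 5, 0 without GEN 5 or with the replicate block). The groups did not overlap for 1 of 15 probe sets with SPI against CAS (Igfbp7), 1 of 15 with GEN against CAS (Igf2) and 2 of 15 with SPI against GEN (Igfbp5 and Igfbp7). The shares over all tested probe sets were 4.6%, 11.1% and 8.5%, so the family's counts lay near the background.

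The median log2 difference over the 15 probe sets, set beside that over all 9520, was -0.10 and -0.01 with SPI against CAS. It was 0.03 and -0.01 with GEN against CAS, and -0.03 and -0.0043 with SPI against GEN. The first 2 comparisons share the CAS arrays. Positive differences were found for 6 of 15 probe sets with SPI against CAS (47.7% of all), 11 of 15 with GEN against CAS (47.9%) and 7 of 15 with SPI against GEN (49.2%). The median 95% interval of the family reached 0.46, 0.49 and 0.46 log2 units to either side of the estimate in these comparisons, and the number of arrays limits that precision.

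By Pearson's r, the brightest probe sets of Igfbp2, Igfbp5 and Igfbp6 followed a marker list from array to array, but not under every alternative below. What share of all tested probe sets would do so was not computed. The brightest probe set of each gene was correlated over the 10 arrays with 4 marker list means and the log2 beta-actin ratio, which made 50 pairs. The lists hold no member of the family. By Pearson's r, 4 pairs had a permutation p that passed after Benjamini-Hochberg adjustment over the 50, and by Spearman's rho 0 did. With diet means removed and permutation within diets, 0 pairs passed. Without the 2 arrays farthest from the median of the list, 0 passed over the remaining 8 arrays.

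Igfbp2 followed the luminal list (r = 0.90, permutation p = 0.00023, adjusted 0.0100; rho = 0.88, permutation p = 0.00153, adjusted 0.0765). Leaving out SPI 4 and GEN 5, whose luminal means lie farthest from the median, gave r = 0.80, and with diet means removed it was 0.84. Igfbp2 also followed the basal and myoepithelial list (r = 0.87, permutation p = 0.00168, adjusted 0.0280; rho = 0.79, permutation p = 0.00856, adjusted 0.143). Its r was 0.72 without SPI 4 and GEN 1, and 0.90 within diets. Within diets both coefficients were positive, and neither passed there, where a single pair could hardly pass. The basal list mixes genes of unlike spread, such as Krt15 (281.8 to 2083.7) and Acta2 (3522.2 to 4869.6). Its genes were not correlated one by one.

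Igfbp5 followed the luminal list on its brightest probe set (r = 0.87, permutation p = 0.00040, adjusted 0.0100; rho = 0.84, permutation p = 0.00391, adjusted 0.0978). Without SPI 4 and GEN 5 its r was 0.71, and within diets 0.82. The second Igfbp5 probe set did not follow it (r = 0.08, permutation p = 0.837, adjusted 0.956; rho = 0.03, permutation p = 0.945). The Igfbp5 relation therefore rested on a single probe set. Igfbp2 and Igfbp5 are neighbours on chromosome 9 with 0 annotated genes between them and lie on opposite strands. Their own correlation over arrays was 0.78 (permutation p = 0.00884, adjusted 0.214 over 45 pairs of members; rho = 0.65, permutation p = 0.0492, adjusted 0.446), and 0.70 without GEN 5 and CAS 1. It did not pass. The pairs were computed on the brightest probe set of each gene, and 8 of the 45 had an unadjusted permutation p under 0.05. The share over other pairs of tested probe sets was not computed. Igfbp5 and Igfbp7, on chromosomes 9 and 14, stood at r = -0.78 (permutation p = 0.00953, adjusted 0.214, rho = -0.68), and at -0.36 without SPI 4 and CAS 1. Both named pairs rest on the brightest Igfbp5 probe set alone. None of the 45 passed, and a part of gene position or of the luminal list in these values was not tested.

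Igfbp6 followed the fibroblast list (r = 0.82, permutation p = 0.00339, adjusted 0.0424; rho = 0.76, permutation p = 0.0153, adjusted 0.171). Without CAS 1 and SPI 3 its r was 0.54, so much of the relation rested on those arrays, and within diets r was 0.84. The second Igfbp6 probe set gave r = 0.86 (permutation p = 0.00166, adjusted 0.0210; rho = 0.70, permutation p = 0.0313). SPI 4 had a higher Igfbp6 signal than the arrays of like fibroblast mean.

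**Figure D3:**
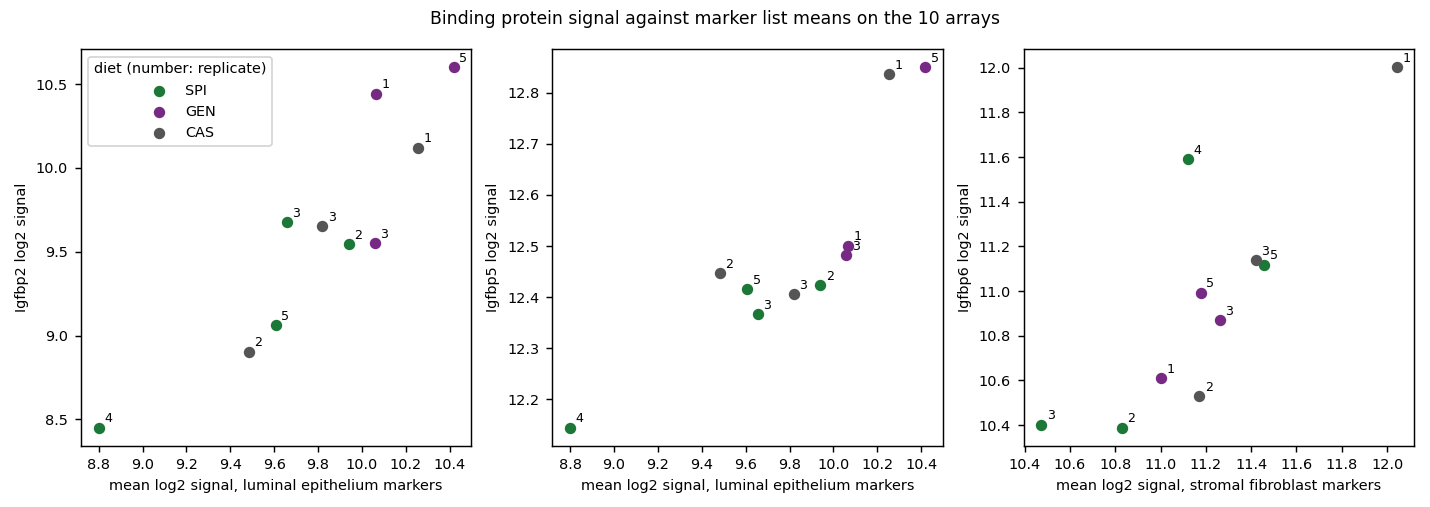
Each panel plots the log2 signal of a binding protein (y) against the mean log2 signal of a marker list (x) on the 10 arrays; numbers beside points are replicates and colours are diets. Igfbp2 and Igfbp5 are lowest on SPI 4 and highest on GEN 5 along the luminal list, and Igfbp6 is highest on CAS 1 along the fibroblast list.

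The remaining pairs did not pass. Igfbp3 had r = -0.75 with the luminal list (permutation p = 0.0189, adjusted 0.158; rho = -0.65, permutation p = 0.0496, adjusted 0.413), which was -0.34 without SPI 4 and GEN 5. Igf1 had r = 0.63 with the adipocyte list (permutation p = 0.0506, adjusted 0.316; rho = 0.75, permutation p = 0.0171, adjusted 0.171) and 0.59 without GEN 1 and GEN 3. Igf2r had r = -0.76 with the beta-actin ratio (permutation p = 0.0124, adjusted 0.124; rho = -0.60, permutation p = 0.0747, adjusted 0.449), and -0.41 without SPI 4 and GEN 5. The luminal list itself had r = -0.56 with that ratio (permutation p = 0.0926, adjusted 0.370 over 4 lists; rho = -0.30, permutation p = 0.408, adjusted 0.714), and 0.42 without SPI 4 and GEN 5.

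**Figure D4:**
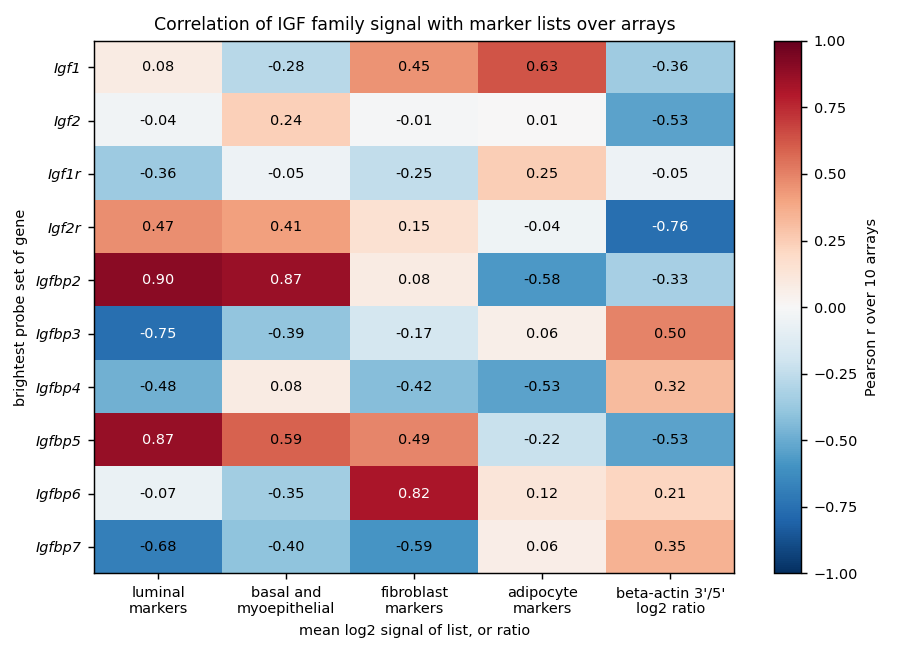
The map shows Pearson's r over the 10 arrays between the brightest probe set of each gene (rows) and 4 marker list means or the log2 beta-actin 3'/5' ratio (columns), red for positive and blue for negative. Igfbp2 stands at 0.90 and Igfbp5 at 0.87 with the luminal list, and Igfbp6 at 0.82 with the fibroblast list.

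Probe sets of the same gene were compared in the same way for the 5 genes with 2 tested probe sets. Those of Igfbp6 ran together (r = 0.98, permutation p = 1e-05, the smallest that 100000 permutations can give, adjusted 5e-05; rho = 0.95, permutation p = 0.00012, adjusted 0.0006), with r = 0.96 without CAS 1 and SPI 3. Those of Igfbp3 (r = 0.64, permutation p = 0.0708, adjusted 0.122; rho = 0.66, permutation p = 0.0439, adjusted 0.110) and Igf1 (r = 0.59, permutation p = 0.0732, adjusted 0.122; rho = 0.52, permutation p = 0.134, adjusted 0.223) did not pass, and r without the 2 farthest arrays was 0.58 and 0.48. For Igf2r r was 0.19 (permutation p = 0.602, adjusted 0.752; rho = 0.19, permutation p = 0.610, adjusted 0.762), and for Igfbp5 0.04 (permutation p = 0.902, adjusted 0.902; rho = 0.10, permutation p = 0.784, adjusted 0.784). Without the 2 farthest arrays these were 0.20 and 0.10. For these genes the probe sets therefore ordered the arrays differently.

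The genes most like the 3 most variable members were listed by Pearson's r over the 10 arrays, as a description. For Igfbp2 (SD of log2 signal 0.67) they were Acsl1, an acyl-CoA synthetase (0.97), Perp, a desmosome protein (0.96), and Retreg1, a receptor for turnover of the endoplasmic reticulum (0.95). For Igfbp6 (SD 0.53) they were the mesenchymal homeobox gene Prrx2, the G protein regulator Rgs2 and the peroxidase gene Gpx8 (0.92 each). For Igf2 (SD 0.41) they were the nuclear import gene Kpna1 (0.89), the protein kinase A subunit Prkar1a (0.88) and Cbs, an enzyme of cysteine synthesis (0.87). The points share arrays and scaling.

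The other genes of the pathway were read from a list of 60, of which 45 were on the array and 36 were tested. The list spanned upstream hormone receptors, genes that handle binding proteins, and the PI3 kinase and MAP kinase arms downstream of the receptor. None passed in any comparison. At an unadjusted p under 0.05 there were 0 higher and 2 lower of 36 with SPI against CAS, where all tested probe sets had 1.53% higher and 3.29% lower. With GEN against CAS there were 0 higher and 2 lower (2.7% and 3.19% of all), and with SPI against GEN 2 higher and 2 lower (3.7% and 4.25% of all). The 4 smallest p of each comparison follow, as values that did not pass.

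For SPI against CAS these were the prolactin receptor gene Prlr at -0.74 ± 0.32, the serine protease gene Htra1 at -0.39 ± 0.17, the receptor adaptor Grb14 at -0.34 ± 0.19 and the stanniocalcin gene Stc1 at 0.42 ± 0.30 (log2 difference and SE, limma's adjusted p = 0.987 for each). For GEN against CAS they were the adaptor gene Grb2 at -0.39 ± 0.15, Htra1 at -0.41 ± 0.19, the insulin receptor substrate gene Irs3 at -0.64 ± 0.31 and the kinase gene Mtor at -0.28 ± 0.14 (adjusted p = 0.825 for each). For SPI against GEN the first was Pik3r1, the regulatory subunit of PI3 kinase, at -1.57 ± 0.57 (adjusted p = 0.563). Next came Grb14 at -0.46 ± 0.19 (0.583), Grb2 at 0.34 ± 0.14 (0.590) and the forkhead factor gene Foxo1 at 0.45 ± 0.20 (0.616). The mean Pik3r1 signal was 150.3 ± 107.1 (SD) on SPI and 373.7 ± 148.1 (SD) on GEN. That SPI mean lay under the level of the filter on dim probe sets, which was set on all arrays together. The same held for Irs3 on GEN (134.2 ± 10.8, against 229.4 ± 128.1 on CAS). Both differences thus rest in part on dim signals.

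Over the 36 genes the median log2 difference was -0.02 (SPI minus CAS), -0.06 (GEN minus CAS) and 0.06 (SPI minus GEN). The 9 genes that lay under the filter included the growth hormone receptor gene Ghr (171.5 at most), the insulin receptor gene Insr (196.7), the adaptor gene Irs1 (117.7), and the liver products Igfbp1 (64.8) and Igfals (17.5), the last being the acid-labile subunit of serum IGF complexes.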

How the data were processed

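Pooled mammary gland RNA was hybridised to 10 Affymetrix RAE230 arrays, and how many separate pools these hold is not known from the labels. The deposited values are 1 linear signal intensity for each probe set and array, from MAS5 as named in the submitters' processing notes. Leaving out 2% at each end, the mean deposited value was 500.1 on every array, and array medians were 222.8 to 256.7. Of 15923 probe sets, 57 controls were left out. Values under 1 (0.0637%) were set to 1, log2 was taken, and the lowest 40% by mean over all arrays were left out, leaving 9520. Symbols came from the platform annotation (12783 probe sets with 1 symbol, 312 with several, 2771 with none) and were checked through Entrez identifiers.

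All 10 arrays entered 1 fit by diet (limma 3.58.1 under R 4.3.3; lmFit, then eBayes with an intensity trend; 7 residual degrees of freedom), with Benjamini-Hochberg adjustment over 9520 probe sets per comparison and a threshold of 0.05. Correlations used 100000 permutations, two-sided. The fit was tested on simulated data.

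The members and lists were chosen with earlier results of these data known. All members and all their probe sets are named. Of the other pathway genes, those that passed or otherwise the 4 with the smallest p are named, and for the 3 members with the largest SD the 3 genes with the highest r. A gene is represented by its brightest probe set. The alternatives changed the trend, filter, normalization, floor, covariates and arrays. The correlations between members and between probe sets of a gene, and those of lists with the actin ratio, were added after the data were seen.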

Additional observations from a re-analysis of the deposited data

How the results depend on the processing

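Of the 19 family probe sets, 4 were too dim to be tested. Under every alternative that was run, 0 members were called in each comparison. Over all tested probe sets limma called 0 as reported. With only the 2 diets compared, 2 were called for SPI against GEN. With 1 array left out the count ran from 0 to 2 for SPI against CAS (2 without SPI 2), from 0 to 1 for GEN against CAS (1 without CAS 1) and from 0 to 1 for SPI against GEN (1 without SPI 2, GEN 5, CAS 2 or CAS 3). Centring arrays on their medians gave 300 higher and 174 lower at an unadjusted p under 0.05 for SPI against CAS (146 and 313 as reported), and 612 and 272 for SPI against GEN (352 and 405 as reported).

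No pairing of the arrays by replicate number was seen. Over 6 same-numbered pairs the deviations from diet means correlated at -0.18 to 0.16, and over the other pairs between diets at -0.40 to 0.30. Of the 9 arrays with a same-numbered partner 0 correlated best with it. With so few arrays per diet these values cannot decide whether same-numbered arrays share a pool. With the replicate block, 0 probe sets were called in each comparison, 270, 416 and 286 had an unadjusted p under 0.05 (459, 561 and 757 without it), and Igfbp2 stood at -0.50 for SPI against GEN.

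Of 405 member values under settings that keep all arrays, 16 changed sign and 0 were called. With the replicate block these were Igfbp2 (0.022) and Igfbp5 1387348_at (0.042) for SPI against CAS, Igf1 1388469_at (-0.26), Igf2r 1386872_at (-0.049) and Igfbp5 1370960_at (-0.022) for GEN against CAS, and Igf2 (0.17) for SPI against GEN. With the actin ratio they were Igf1 1388469_at (-0.073), Igf2r 1386872_at (-0.052) and Igfbp5 1370960_at (-0.0069) for GEN against CAS, and Igf2 (0.16), Igf2r 1386872_at (0.017), Igfbp5 1387348_at (-0.047) and Igfbp6 1372168_s_at (-0.035) for SPI against GEN. With arrays centred on medians they were Igf2r 1386872_at for SPI against CAS (0.015) and Igf2 for SPI against GEN (0.031), and with quantile normalization Igfbp7 for GEN against CAS (-0.034).

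Of 450 values with 1 array left out, 38 changed sign. Their ranges for SPI against CAS were -0.26 to 0.077 (Igf2r 1367636_at), -0.42 to 0.31 (Igfbp3 1367652_at), -0.69 to 0.041 (Igfbp6 1372168_s_at) and -0.73 to 0.014 (Igfbp6 1387625_at). For GEN against CAS they were -0.14 to 0.21 (Igf1 1388469_at), -0.15 to 0.19 (Igf2r 1367636_at), -0.11 to 0.083 (Igf2r 1386872_at), -0.31 to 0.42 (Igfbp3 1367652_at), -0.19 to 0.18 (Igfbp3 1386881_at), -0.072 to 0.18 (Igfbp5 1370960_at) and -0.62 to 0.12 (Igfbp6 1387625_at). For SPI against GEN they were -0.10 to 0.24 (Igf1 1370333_a_at), -0.31 to 0.16 (Igf2), -0.022 to 0.24 (Igf1r), -0.14 to 0.050 (Igf2r 1386872_at), -0.18 to 0.018 (Igfbp3 1367652_at), -0.12 to 0.27 (Igfbp5 1387348_at), -0.19 to 0.21 (Igfbp6 1372168_s_at) and -0.30 to 0.078 (Igfbp6 1387625_at).

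Of the correlations with marker lists, 4 passed by Pearson's r and 0 by Spearman's rho, and the share over all tested probe sets was not computed. None passed without the 2 farthest arrays, which leaves fewer arrays. With diet means removed and permutation within diets 0 passed too. Diets of 4, 3 and 3 arrays allow so few orders that a single pair could hardly pass there. Centred on medians, 3 passed, and with 1 array left out 0 to 4 (0 without GEN 5, 1 without SPI 4 or CAS 1, 2 without SPI 2, GEN 1, GEN 3 or CAS 2). The second Igfbp5 probe set, chosen after seeing the data, had r = 0.08 with the luminal list. The causes were not tested.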
